A study of Mus musculus with 9 samples.

Results

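The 8 genes described here encode proteins that shorten the life of messenger RNA in activated T cells. They are Zfp36, Zfp36l1 and Zfp36l2 of the tristetraprolin (TTP) family, Zc3h12a and Zc3h12d of the Regnase family, the Roquin genes Rc3h1 and Rc3h2, and Btg1. They were chosen by symbol, and all 8 were found among the 18188 genes listed. Messenger RNA of CD8+ T cells (cytotoxic lymphocytes) from mouse spleens was captured by its poly(A) tail and sequenced in 4 libraries with a knockout of the RIG-I gene (Rig1 KO) and 5 wild-type (WT) libraries. RIG-I senses viral RNA in the cytosol, and the comparison asks which transcripts differ when its gene is disrupted. The sources used here do not give strain, age, the knockout allele, the cell purification or any stimulation, and the titles number the libraries without naming separate animals. The p-values therefore measure only the spread between these libraries, which may be technical.

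TTP and its paralogues bind AU-rich elements in the 3′ untranslated region (3′ UTR) of cytokine and early response transcripts and recruit the CCR4-NOT complex, which removes the poly(A) tail. Regnase-1, the product of Zc3h12a, is an endonuclease that cuts stem-loops in such transcripts, and the Roquins bind stem-loops and also recruit CCR4-NOT. Antigen receptor signals induce Zfp36 transcription, and the protease MALT1 then cleaves Regnase-1 and the Roquins. BTG1 links the deadenylase to its substrates and helps to keep resting T cells quiescent.

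The sequence context of the members is shown because these factors can act on each other's transcripts and because Zfp36 is a textbook early response gene. The nonamer TTATTTATT, the core of the AU-rich element that TTP family proteins bind, was searched on the sense strand of the longest annotated 3′ UTR of each gene (GENCODE M21, build GRCm38). It occurred once in each of 5 members, all 3 of the TTP family and both Roquin genes, and not in Zc3h12a, Zc3h12d or Btg1. Of 10234 tested genes with an annotated 3′ UTR, 7.96% held it. The sites are given with 10 bases on either side and the nonamer in capitals.
Zfp36 (chromosome 7): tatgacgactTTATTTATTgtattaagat
Zfp36l1 (chromosome 12): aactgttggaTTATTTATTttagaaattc
Zfp36l2 (chromosome 17): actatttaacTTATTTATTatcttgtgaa
Rc3h1 (chromosome 1): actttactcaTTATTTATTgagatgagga
Rc3h2 (chromosome 2): caaagacattTTATTTATTttactctgta
These UTRs differ in length, with 774 bases in Zfp36, 1835 in Zfp36l1, 1822 in Zfp36l2, 7181 in Rc3h1 and 5331 in Rc3h2.

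The 250 bases before the start of 7 members were searched on both strands (RefSeq, build GRCm38.p6) for AP-1 (TGANTCA), CRE (TGACGTCA), TATA box (TATAAA) and EGR (GCGGGGGCG or GCGTGGGCG) letters, and for NF-κB motifs and the serum response element by name. Each match is a description and not evidence of binding. The matches are shown in capitals with 10 bases on either side, read 5′ to 3′ on the strand of the gene.
Zfp36 EGR, chr7:28379315-28379343, minus strand: gagctacgccGCGGGGGCGcgtcccggaa
Zfp36 serum response element, chr7:28379267-28379296, minus strand: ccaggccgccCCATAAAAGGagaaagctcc
Zfp36l1 AP-1, chr12:80113126-80113152, minus strand: accgcatggcTGATTCAacctcagtgt
Zfp36l1 TATA box, chr12:80113027-80113052, minus strand: caccaaatctTATAAAttgggctttg
Rc3h1 AP-1, chr1:160906268-160906294, plus strand: ttggggccggTGACTCAgagctttcct
Btg1 TATA box, chr10:96616965-96616990, plus strand: tccgcagcccTATAAAatgagctgca
Among 32851 promoters of that length, 1.47% held the serum response element, 2.57% the letters GCGGGGGCG, 6.75% the AP-1 letters, 12.4% TATAAA, 1.55% the CRE letters, 0.536% GCGTGGGCG, and 1.41% and 1.53% the forms of the NF-κB motif. In the GENCODE annotation the Zfp36 gene extends upstream over both of its matches. The windows of Zc3h12a, Zc3h12d and Rc3h2 held none of these motifs. For Zc3h12a, Rc3h1 and Btg1 the RefSeq start differs from the GENCODE transcript starts, so their windows depend on the annotation used.

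Reads recovered from the deposited values numbered 15509876 to 17866952 per Rig1 KO library and 15496262 to 17893558 per WT library. Every member had at least 495 reads in every library. The targeted gene, listed under its older symbol Ddx58, was at 33.3 ± 2.04 TPM (a length-adjusted share of a library's reads) in Rig1 KO and 65.1 ± 2.0005 TPM in WT (log2 fold change -0.95, limma adjusted p = 4.91e-07). The 8 CD8+ T cell markers found summed to 7099 to 7838 TPM in Rig1 KO and 5203 to 5956 TPM in WT. Markers of other cell types also differed. The 9 B cell markers summed to 92.8 to 199 TPM in Rig1 KO and 165 to 1159 TPM in WT, the 4 platelet markers to 31.2 to 39.3 TPM in Rig1 KO and 180.1 to 242 TPM in WT, the 6 natural killer cell markers to 441 to 489 TPM in Rig1 KO and 150.2 to 196 TPM in WT, and the 7 basophil and mast cell markers to 227 to 429.8 TPM in Rig1 KO and 15.9 to 59.7 TPM in WT. No marker found was at 0 in every library. The 8 neutrophil markers summed to 52.1 to 97.7 TPM in Rig1 KO and 72.6 to 353 TPM in WT, and the 7 of monocytes and macrophages to 618 to 727 TPM in Rig1 KO and 355 to 845 TPM in WT. Dendritic cell markers spanned 223 to 299 TPM in Rig1 KO and 259 to 329 TPM in WT. Only 1 of the dendritic cell markers reached a mean of 5 TPM, so their sum rests mostly on that gene. CD4+ T cell markers spanned 20.3 to 23.4 TPM in Rig1 KO and 19.5 to 66.0 TPM in WT, and erythroid markers 175 to 318 TPM in Rig1 KO and 73.8 to 196 TPM in WT. In bulk RNA, fewer cells of a type and less RNA per cell cannot be told apart. WT 5 was the WT library highest in B cell, CD4+ T cell, neutrophil, dendritic cell and monocyte and macrophage markers.

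Of the 8 members, 5 fell in the Rig1 KO libraries (Zc3h12a, Zfp36, Zfp36l1, Btg1 and Zfp36l2), 2 rose (Zc3h12d and Rc3h2) and Rc3h1 did not pass the test. Over all 10540 genes tested, 45.7% were called, 12.2% lower and 33.5% higher. The TPM of the groups did not overlap for 6 of the 8 members, against 38.1% of all tested genes. Zc3h12a and Zfp36 were lower by more than 1 on the log2 scale, as were 2.74% of all genes. Genes were tested with limma on log2(TPM + 1), and log2 fold changes are Rig1 KO minus WT on that scale with p-values adjusted by Benjamini-Hochberg over every gene tested. Across the tested genes the median change was 0.13, and scaling the libraries by median ratios moved it to 0.00, so changes near that size have no fixed direction. With that scaling 1 member rose and 6 fell, against 45.2% of all genes called (22.6% higher and 22.6% lower). With quantile scaling 1 rose and 5 fell, against 45.0% of all genes called (24.2% higher and 20.8% lower).

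Zfp36, which encodes TTP itself, fell 3.32-fold. Its level was 469.8, 449.8, 466 and 489 TPM in Rig1 KO 1 to 4, and 1387, 1564, 1551, 1521 and 1753 TPM in WT 1 to 5. The groups were far apart, with the highest Rig1 KO library well under the lowest WT library, and WT 5 was the highest. The means were 469 ± 16.0 TPM in Rig1 KO (SD, n = 4) and 1555 ± 131 TPM in WT (SD, n = 5). The log2 fold change was -1.72 (SE 0.066, limma adjusted p = 2.22e-08).

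Zfp36l1, a paralogue of Zfp36, fell 1.82-fold. It stood at 603, 532, 607 and 622 TPM in Rig1 KO 1 to 4, and at 1080.3, 971, 1007, 1069 and 1241 TPM in WT 1 to 5. The groups did not overlap, and WT 5 was again the highest library. It changed by -0.86 on the log2 scale (SE 0.077, limma adjusted p = 1.24e-05).

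Zfp36l2, which with Zfp36l1 is needed for orderly thymocyte development in mice, showed the smallest fall of the family. It was at 1337, 1722, 1397 and 1233 TPM in Rig1 KO 1 to 4, and at 1844, 1639.9, 1673, 1778 and 1885 TPM in WT 1 to 5. Rig1 KO 2 lay inside the WT range and the other Rig1 KO libraries lay below it. Its log2 fold change was -0.32 (SE 0.092, limma adjusted p = 0.0158), and it became -0.42 (adjusted p = 0.00122) without Rig1 KO 2. It did not pass without Rig1 KO 4 (-0.25, adjusted p = 0.0526) or after quantile scaling (-0.13, adjusted p = 0.244). Rig1 KO 2 was also highest in basophil and mast cell markers, at 429.8 TPM against 227 to 244 TPM in the other Rig1 KO libraries. Their part in the Zfp36l2 level was not tested. Genes on the opposite strand overlap Zfp36, Zfp36l1 and Zfp36l2 in the annotation, and without stated strand use in the counting their reads cannot be told apart from those of the partner.

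Zc3h12a, which encodes Regnase-1, had the largest change of the 8 members and fell 4.98-fold. Its level was 40.2, 40.5, 40.9 and 41.9 TPM in Rig1 KO 1 to 4, and 205, 214, 217, 178 and 203 TPM in WT 1 to 5. The Rig1 KO libraries were nearly level with each other, and WT 4 was the lowest WT library. The means were 40.9 ± 0.739 TPM in Rig1 KO (SD, n = 4) and 204 ± 15.4 TPM in WT (SD, n = 5), with a log2 fold change of -2.28 (SE 0.061, limma adjusted p = 1.34e-09). Of all genes tested, 0.569% had a lower fold change.

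Zc3h12d, a family member whose product is also an RNase that acts on cytokine transcripts, moved the other way and rose 1.36-fold. It stood at 39.2, 37.9, 42.4 and 37.8 TPM in Rig1 KO 1 to 4, and at 28.9, 27.3, 29.1, 29.4 and 29.7 TPM in WT 1 to 5. The groups did not overlap. This was a log2 fold change of 0.43 (SE 0.055, limma adjusted p = 0.000128). It was 0.30 under median ratio scaling (adjusted p = 0.000458) and 0.30 under quantile scaling (adjusted p = 0.000412).

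The Roquin genes changed little. Rc3h1, which encodes Roquin-1, was at 34.4, 32.97, 40.9 and 40.1 TPM in Rig1 KO 1 to 4, and at 42.0, 36.04, 39.5, 39.7 and 35.5 TPM in WT 1 to 5. The groups overlapped, with Rig1 KO 1 and 2 below every WT library. Rc3h1 changed by -0.06 on the log2 scale, with a 95% interval of -0.24 to 0.12 (limma adjusted p = 0.586). It passed with median ratio scaling (-0.19, adjusted p = 0.0326) and with quantile scaling (-0.17, adjusted p = 0.0440).

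Rc3h2, the gene of Roquin-2, was at 25.4, 23.9, 28.5 and 29.6 TPM in Rig1 KO 1 to 4, and at 22.5, 21.7, 23.9, 20.8 and 20.2 TPM in WT 1 to 5. The groups did not overlap, but only just, since Rig1 KO 2 and WT 3 were all but equal (23.94 TPM in Rig1 KO 2 and 23.87 TPM in WT 3). Rc3h2 rose by 0.29 on the log2 scale (SE 0.077, limma adjusted p = 0.0115). It did not pass with median ratio scaling (0.15, adjusted p = 0.0823) or quantile scaling (0.15, adjusted p = 0.0877). Both Roquin genes were lower in Rig1 KO 1 and 2 than in Rig1 KO 3 and 4, and over all genes these libraries were also closest within those pairs (chi-square per degree of freedom 4.39 for Rig1 KO 1 and 2 and 5.69 for Rig1 KO 3 and 4, against 8.57 to 14.2 for the other pairs). Whether these pairs share a source was not tested.

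Btg1, the member with the highest level per exon length, fell 1.55-fold. It was at 1872, 1793, 1975 and 1901 TPM in Rig1 KO 1 to 4, and at 2920.0, 2791, 2869, 2872 and 3160 TPM in WT 1 to 5. The groups did not overlap and WT 5 was the highest library, as for the TTP family. Btg1 changed by -0.63 on the log2 scale (SE 0.056, limma adjusted p = 1.11e-05).

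**Figure D1:**
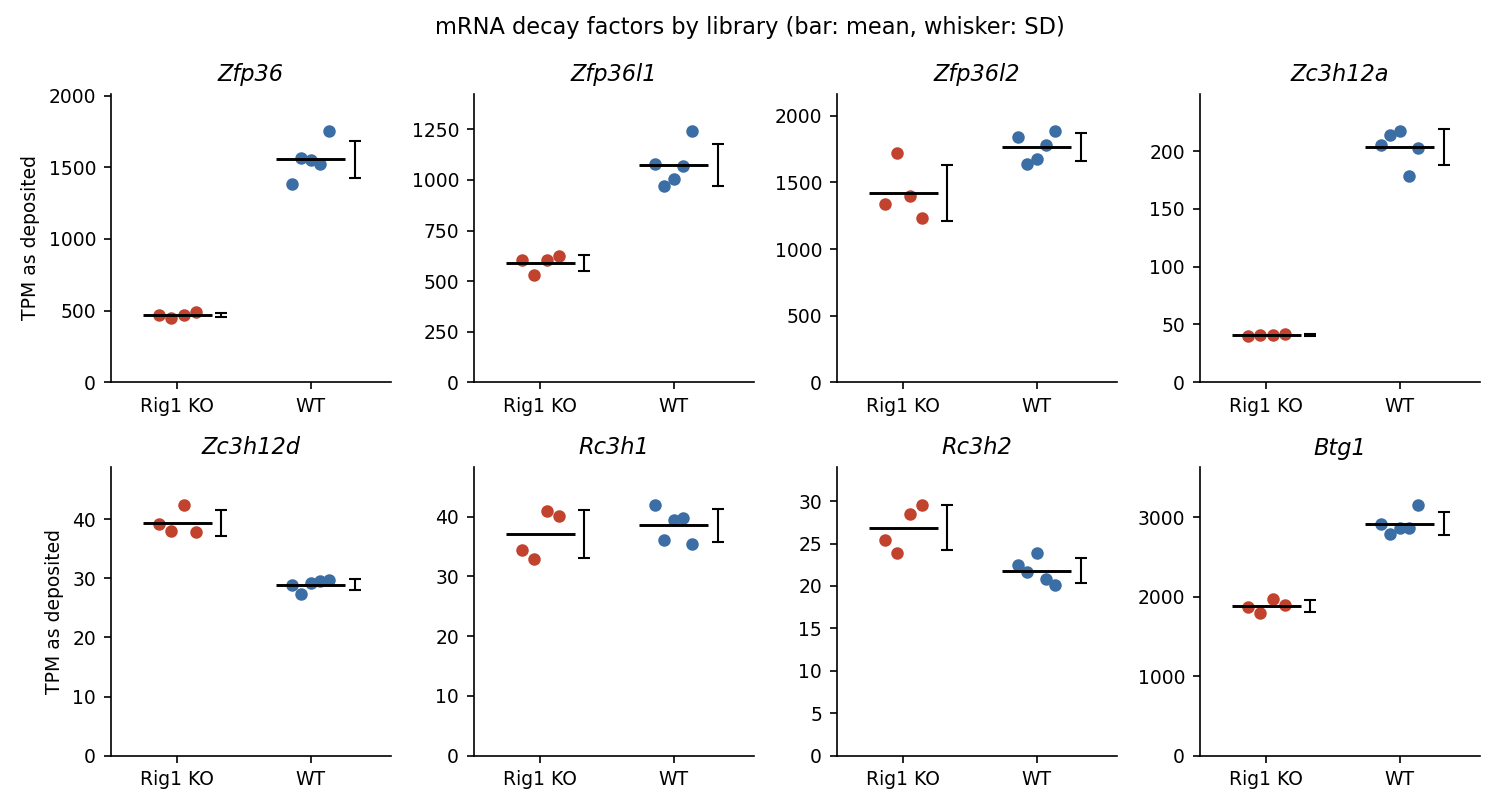
TPM as deposited (vertical axis, from 0) of each member in the 4 Rig1 KO libraries (left, red) and the 5 WT libraries (right, blue). Points are libraries, bars are means and whiskers are SD. Zc3h12a and Zfp36 show the widest gaps, while Zfp36l2 and Rc3h1 overlap.

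**Figure D2:**
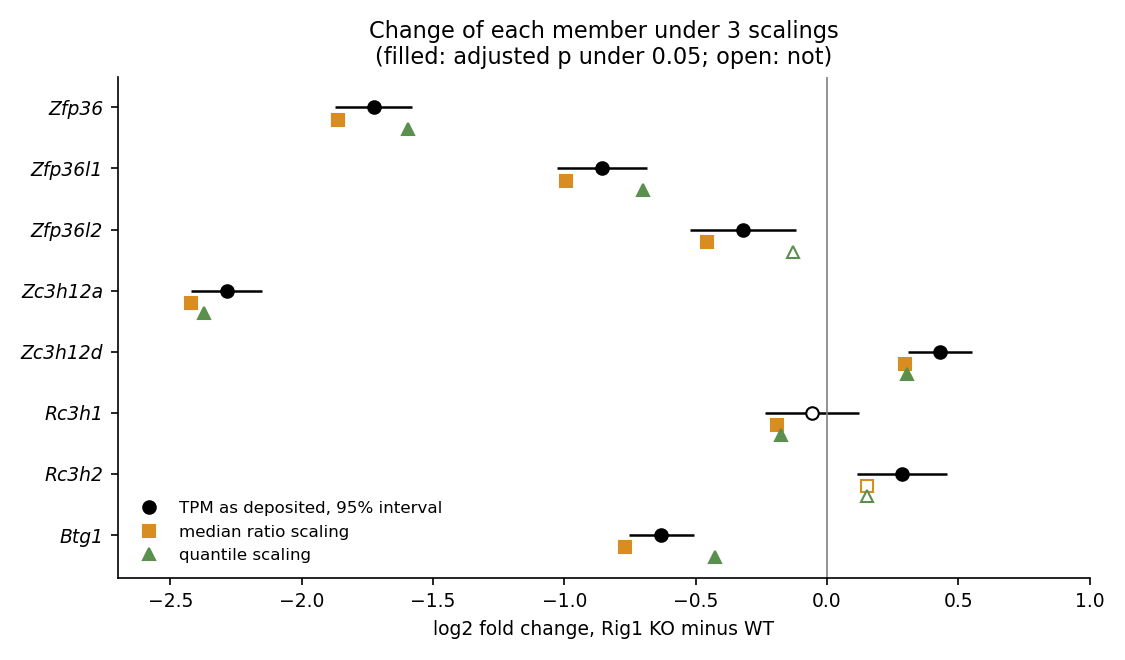
Log2 fold change of each member (horizontal axis, Rig1 KO minus WT) with TPM as deposited and its 95% interval, after median ratio scaling and after quantile scaling. Filled symbols passed the limma test. Zfp36, Zfp36l1, Zc3h12a, Zc3h12d and Btg1 passed under all 3 scalings, and Zfp36l2, Rc3h1 and Rc3h2 did not.

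The falls of Zfp36 and Zc3h12a were set beside the B cell markers, which varied 7-fold among the WT libraries. Rig1 KO 3 had a higher B cell marker sum (199 TPM) than WT 3 (165 TPM), the only pair across the groups in this order, chosen after the values were seen. In that pair Zfp36 was at 466 TPM in Rig1 KO 3 and 1551 TPM in WT 3, and Zc3h12a at 40.9 TPM in Rig1 KO 3 and 217 TPM in WT 3. When the mean of the B cell markers entered the fit as a covariate, log2 fold changes were -1.61 for Zfp36 (adjusted p = 9.63e-06) and -2.35 for Zc3h12a (adjusted p = 5.91e-07), while Zfp36l2 and Rc3h2 no longer passed (adjusted p = 0.268 and 0.300). The part of B cells in these changes was not tested beyond these values. The sums of CD8+ T cell, platelet, natural killer cell and basophil and mast cell markers did not overlap between the groups. They cannot be told apart from the genotype in these libraries.

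Levels of different genes were compared per exon length, since the deposited TPM divide by the genomic span of a gene, introns included. The span was 68561 bases for Rc3h1 and 3470 for Zfp36, against exon lengths of 11308 and 3470 bases. The annotation thus removes no bases from Zfp36, while Zfp36l1 goes from 5260 to 2990 bases. The place of Zfp36 beside Zfp36l1 and Zfp36l2 in these orders therefore depends on the annotation. Whether reads in introns were counted is not given in the sources used here. On the exon-length TPM scale the order in Rig1 KO was Btg1 (745 ± 14.3), Zfp36l2 (583 ± 97.7), Zfp36l1 (373 ± 19.5), Zfp36 (168 ± 4.39), Zc3h12d (131 ± 5.81), Rc3h1 (80.7 ± 6.84), Zc3h12a (48.0 ± 0.866) and Rc3h2 (25.96 ± 1.99; SD, n = 4). In WT the order was Btg1 (1185 ± 46.1), Zfp36l2 (739.9 ± 37.95), Zfp36l1 (696 ± 60.1), Zfp36 (573 ± 45.5), Zc3h12a (245 ± 20.3), Zc3h12d (98.8 ± 2.06), Rc3h1 (86.2 ± 6.15) and Rc3h2 (21.7 ± 1.57; SD, n = 5). Libraries of neighbours in these orders did not overlap, except for Zfp36l2 and Zfp36l1 in WT. Some came close, namely Btg1 and Zfp36l2 in Rig1 KO (728 and above, against 724 and below), and in WT Zfp36l1 and Zfp36 (641 and above, against 637 and below) and Zc3h12d and Rc3h1 (95.2 and above, against 94.1 and below). Zc3h12a thus ranked 4314th of 17729 genes in Rig1 KO, against 630th in WT.

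Ratios of paralogues within a library are not moved by scaling each library with a single factor, and all 5 ratios examined were lower in Rig1 KO than in any WT library. The shared direction depends on which paralogue was put on top. Within the TTP family, Zfp36 to Zfp36l2 is the product of the other ratios, so the 5 are not independent. Zc3h12a to Zc3h12d stood at 0.362, 0.377, 0.340 and 0.391 in Rig1 KO 1 to 4, and at 2.50, 2.76, 2.63, 2.13 and 2.41 in WT 1 to 5. Zc3h12d was therefore the higher of the pair in every Rig1 KO library and Zc3h12a in every WT library. The Zfp36 to Zfp36l2 ratio was 0.309, 0.230, 0.293 and 0.348 in Rig1 KO 1 to 4, and 0.661, 0.838, 0.815, 0.752 and 0.817 in WT 1 to 5. Zfp36 to Zfp36l1 lay between 0.437 and 0.481 in Rig1 KO and between 0.730 and 0.916 in WT. Zfp36l1 to Zfp36l2 lay between 0.478 and 0.780 in Rig1 KO and between 0.906 and 1.02 in WT, with Rig1 KO 2 the lowest. The Rc3h1 to Rc3h2 ratio lay between 3.05 and 3.23 in Rig1 KO and between 3.72 and 4.29 in WT. Differences of the mean log2 ratios, Rig1 KO minus WT, were -2.76 for Zc3h12a to Zc3h12d, -1.41 for Zfp36 to Zfp36l2, -0.87 for Zfp36 to Zfp36l1, -0.54 for Zfp36l1 to Zfp36l2 and -0.36 for Rc3h1 to Rc3h2. Each gave p = 0.00794 in a two-sided exact permutation test, which is the smallest p possible with 4 against 5 libraries, and the same value after adjustment over the 5 ratios. Members of the TTP family, the Regnases and the Roquins thus changed unequally within their families.

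**Figure D3:**
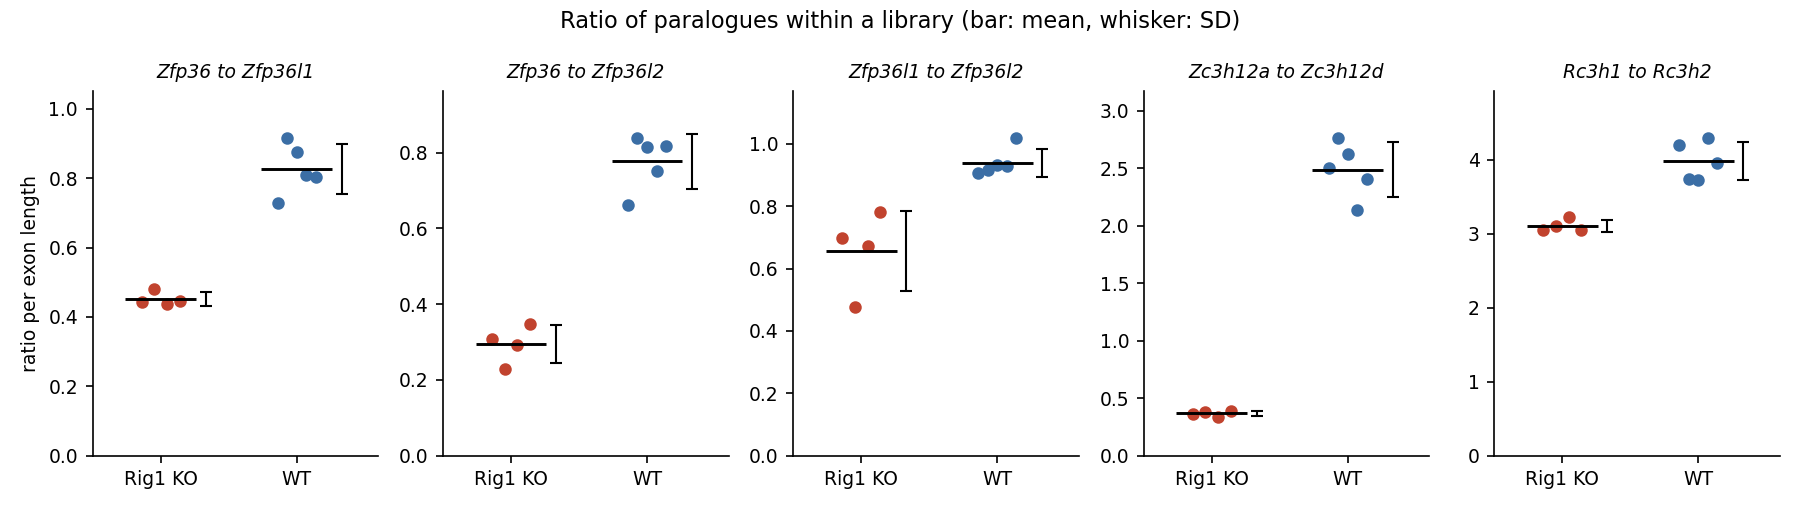
Ratio of paralogues per exon length within each library (vertical axis, from 0) for the 4 Rig1 KO libraries (left, red) and the 5 WT libraries (right, blue), with mean and SD. No ratio overlaps between the groups, and Zc3h12a to Zc3h12d lies under 0.391 or at it in Rig1 KO and at 2.13 or above in WT.

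The genes whose profiles over the 9 libraries lay nearest to those of the most changed members were named by the root mean square difference of log2(TPM + 1) from the WT mean, among 6417 genes. For Zfp36 these were Nfkbiz (0.0821), which encodes an NF-κB cofactor, Jund (0.119), a subunit of AP-1, and Zfand2a (0.134), a stress-induced zinc finger gene. For Zc3h12a they were Plk3 (0.131), a stress-responsive kinase gene, Fosl2 (0.166), a further AP-1 subunit, and Vps37b (0.182), a subunit of the ESCRT sorting machinery. Their log2 fold changes ran from -2.47 (Fosl2) to -1.66 (Nfkbiz), a direction that their choice by profile fixes.

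The other members of the BTG and TOB family, which like BTG1 bind the deadenylase, fell with Btg1. Of 5 listed, 4 were tested and all 4 fell, with a median log2 fold change of -1.30 against 0.13 over all tested genes. Of all tested genes 12.2% were lower. Once B cell markers entered the fit, 3 of the 4 were called lower (median -1.36), as were 610 of all 10540 genes tested. Btg3 was at 5.18 ± 0.372 TPM in Rig1 KO and 16.2 ± 0.976 TPM in WT (limma adjusted p = 1.40e-07). Tob2 was at 91.8 ± 8.12 TPM in Rig1 KO and 228 ± 17.7 TPM in WT, and Tob1 at 150.6 ± 16.8 TPM in Rig1 KO and 371 ± 49.7 TPM in WT. Btg2, the closest relative of Btg1 and named after its values were seen, was at 369 ± 32.7 TPM in Rig1 KO and 496 ± 73.5 TPM in WT (adjusted p = 0.00764). Of 7 other genes with CCCH zinc fingers that were tested, Mkrn2 fell (11.8 ± 0.682 TPM in Rig1 KO and 14.3 ± 1.36 TPM in WT, adjusted p = 0.0243) and 6 did not pass. Mkrn2 did not pass without Rig1 KO 1, Rig1 KO 4, WT 3 or WT 5. With median ratio scaling 5 of the 7 fell, where 22.6% of all genes were lower.

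In the general decay machinery that these factors recruit, the share of genes called was near the 45.7% of all tested genes in the deadenylase, decapping and exosome lists. Of 14 deadenylase genes of the CCR4-NOT and PAN complexes, 5 rose, 1 fell and 8 did not pass, with a median of 0.10. Without Rig1 KO 3 the counts were 3 and 0, and with median ratio scaling 2 rose and 3 fell. Cnot8, a catalytic subunit, was at 74.2 ± 1.81 TPM in Rig1 KO and 52.5 ± 2.90 TPM in WT, and Cnot6l, another deadenylase, at 39.1 ± 3.72 TPM in Rig1 KO and 27.6 ± 1.39 TPM in WT. Cnot6 rose by 0.23 on the log2 scale and Cnot11 fell by 0.19 (adjusted p = 0.0499). Of 20 decapping and 5′ decay genes, 6 rose, 2 fell and 12 did not pass (median 0.14), against 3 and 5 after median ratio scaling. Dcp2, the decapping enzyme, was at 26.4 ± 3.48 TPM in Rig1 KO and 11.8 ± 1.06 TPM in WT. The decapping cofactor genes Pnrc2 and Pnrc1 moved oppositely, with Pnrc2 at 583 ± 66.5 TPM in Rig1 KO and 320 ± 20.5 TPM in WT and Pnrc1 at 40.2 ± 0.905 TPM in Rig1 KO and 120 ± 5.23 TPM in WT. Lsm5 fell by 0.40.

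Of 15 tested exosome and SKI genes, 6 rose, 1 fell and 8 did not pass (median 0.08), against 5 and 3 with median ratio scaling. Exosc8 rose by 0.58 and Exosc4 by 0.49 on the log2 scale, both core subunits, and Hbs1l, which rescues stalled ribosomes, fell by 0.41. Of 10 nonsense-mediated decay genes, 2 rose (Smg1 and Upf3b), 1 fell and 7 did not pass, with a median of -0.02. With median ratio scaling the counts were 2 and 5. Of 16 other RNA-binding regulators, 5 rose and 2 fell (median 0.07), against 3 and 6 with median ratio scaling. N4bp1, an RNase of the Regnase-like kind, was at 18.5 ± 0.481 TPM in Rig1 KO and 10.8 ± 0.649 TPM in WT. Celf1, which binds GU-rich elements, and Tia1, a translational silencer, also rose, while Hnrnpd, which encodes the AU-rich element binding protein AUF1, was at 171 ± 9.58 TPM in Rig1 KO and 209 ± 10.001 TPM in WT.

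Of 23 tested genes whose products modify the decay factors, 7 rose, 5 fell and 11 did not pass (median -0.02), near the share of all genes called (45.7%). With median ratio scaling 4 rose and 9 fell, where 22.6% of all genes were higher and 22.6% lower. Ywhag, a 14-3-3 protein gene, was at 66.5 ± 7.14 TPM in Rig1 KO and 36.5 ± 6.54 TPM in WT. Mapkapk3, a kinase downstream of p38, rose by 0.63 on the log2 scale. Among genes chosen after their values were seen, Malt1 was at 56.0 ± 7.04 TPM in Rig1 KO and 54.0 ± 2.76 TPM in WT (limma adjusted p = 0.663), and Mapkapk2, the kinase that phosphorylates TTP, at 17.1 ± 1.38 TPM in Rig1 KO and 20.6 ± 2.45 TPM in WT (adjusted p = 0.0432).

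Among transcripts known as targets of the decay factors, none that passed the filter on low values was called higher with all libraries and no covariate. The counts that fell are given by list, and mRNA stability was not measured. Several of these transcripts are early response genes, and some stand in more than 1 of the target lists. Of 18 TTP family targets found, 14 were tested, of which 10 fell and 4 did not pass, with a median log2 fold change of -1.42. Over all tested genes 12.2% were lower. The filter asks for TPM 1 in 4 or more libraries, so a target seen only in WT can enter these counts through WT alone. With no filter on low values, 1 of 18 TTP family targets rose and 10 fell, with a median of -0.46. Of all 17934 genes in that fit, 3378 were higher and 1428 lower (median 0.02). Cxcl2, a neutrophil-attracting chemokine, was at 0.626 ± 0.587 TPM in Rig1 KO and 47.9 ± 14.5 TPM in WT. Dusp1, a MAP kinase phosphatase, was at 7.24 ± 0.662 TPM in Rig1 KO and 89.7 ± 9.29 TPM in WT, and Fos, an AP-1 subunit, at 239 ± 28.2 TPM in Rig1 KO and 2353 ± 236 TPM in WT. Without WT 4 and WT 5, which had the highest B cell marker sums, 11 passed the filter on low values and 6 fell, with a median of -0.49. A gene that reaches TPM 1 only in WT cannot pass that filter without WT 4 and WT 5. Such targets drop out by design, so this count and median cannot be set against those of all libraries. Without WT 4 and WT 5, 1014 of all 10312 genes tested were lower, and the median over all of them was 0.16. With B cell markers in the fit, 7 of the 14 fell and the median was -0.80. Calls also fell over all 10540 genes tested, with 610 lower in that fit against 1291 without the covariate.

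Of 18 Regnase-1 targets found, 14 were tested, 8 fell and 6 did not pass (median -0.76), where 12.2% of all tested genes were lower. With no filter on low values 8 of the 18 fell (median -0.58), as did 1428 of all 17934 genes. Without WT 4 and WT 5, 7 of 13 tested fell and the median was -0.49, where 1014 of all 10312 genes tested were lower. Here too a gene seen only in WT cannot pass the filter. With B cell markers in the fit 7 fell and 1 rose. Ptgs2, the inducible cyclooxygenase, was at 0.484 ± 0.335 TPM in Rig1 KO and 11.03 ± 4.01 TPM in WT, and Il1b, an inflammatory cytokine of myeloid cells, at 3.51 ± 0.270 TPM in Rig1 KO and 28.7 ± 10.4 TPM in WT. All 12 Roquin targets were tested, and 9 fell and 3 did not pass (median -0.54), against 5 that fell once B cell markers entered the fit. With those markers in the fit 610 of all 10540 genes tested were lower. Without WT 4 and WT 5 all 12 Roquin targets were still tested and 7 fell, with a median of -0.49. Ctla4, an inhibitory receptor, was at 5.64 ± 1.31 TPM in Rig1 KO and 55.9 ± 4.72 TPM in WT. Irf4, a transcription factor of activated lymphocytes, was at 12.4 ± 2.34 TPM in Rig1 KO and 58.4 ± 14.6 TPM in WT, and Ifng, the gene of interferon-γ, at 21.4 ± 5.13 TPM in Rig1 KO and 70.2 ± 11.4 TPM in WT. Icos and Tnfrsf4, costimulatory receptor genes named after their values were seen, did not pass. Icos was at 36.6 ± 6.50 TPM in Rig1 KO and 34.6 ± 2.42 TPM in WT, and Tnfrsf4 at 22.5 ± 3.08 TPM in Rig1 KO and 22.8 ± 3.10 TPM in WT (limma adjusted p = 0.643 and 0.920).

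**Figure D4:**
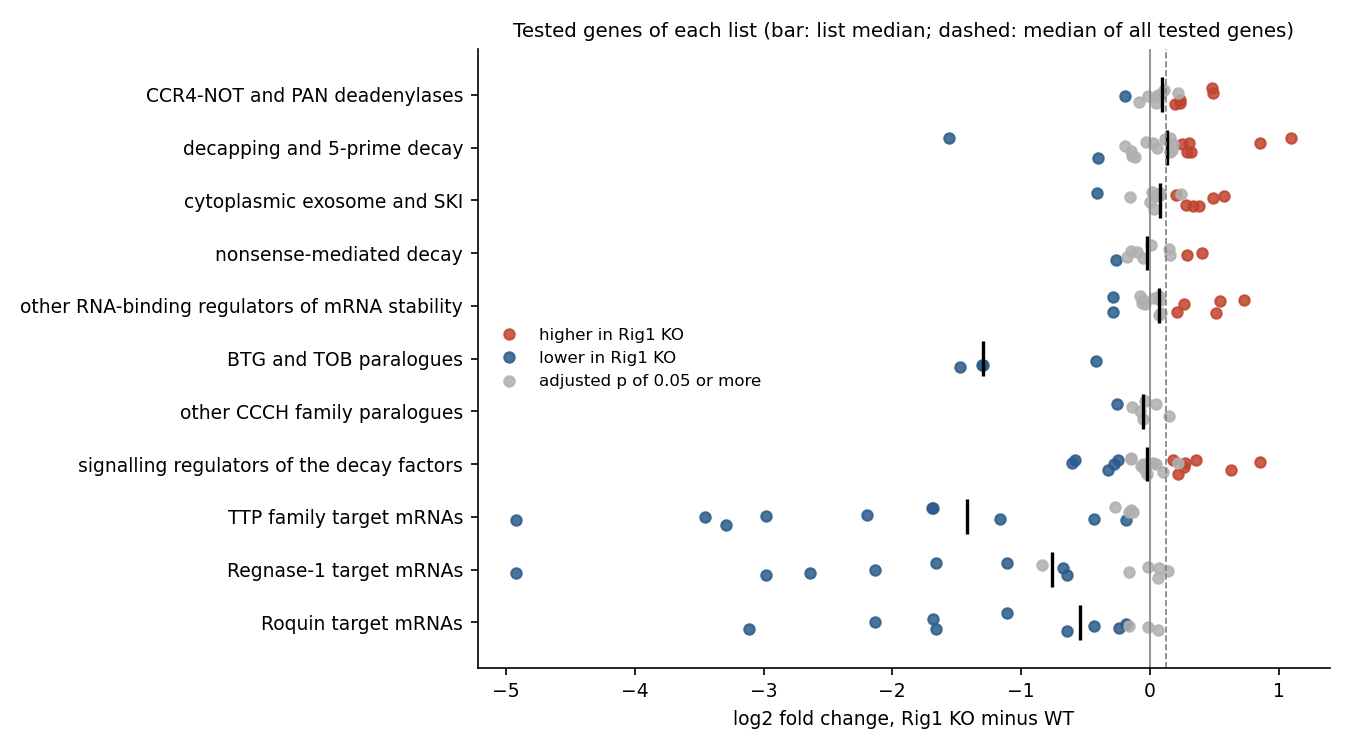
Log2 fold change of every tested gene of each list (horizontal axis, Rig1 KO minus WT), red for genes called higher, blue for lower and grey for those that did not pass. Black bars are list medians and the dashed line is the median of all tested genes, 0.13. The machinery lists lie around that line, while the BTG and TOB list and the 3 target lists have medians from -1.42 to -0.54.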

How the data were processed

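The deposited values are TPM, 1 column per library, per the file headers. The submitters' processing notes name fastp, featureCounts and the build mm39 (GRCm39). Not given in the sources used here are versions, aligner, annotation and strand setting. The low TPM values keep whole-number ratios, from which the reads were recovered for 100% of genes, up to a common divisor of a gene's reads, within a relative tolerance of 2e-12. The lengths they imply lay within 1% of the genomic span for 99.1% of 10919 genes. Exon lengths and UTRs came from GENCODE M21 and promoters from RefSeq, both on GRCm38.

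The test was limma 3.58.1 (R 4.3.3) on log2(TPM + 1) with its trend option and all 9 libraries, for genes that reached TPM 1 in 4 or more of them. The 16 within-group pairs had a chi-square over its degrees of freedom of 4.39 to 18.8, and no libraries were merged as duplicates. Procedures were tested on simulated data. The alternatives covered pseudocount, filter, scaling, gene length, test, B cell covariate, replicate number and left-out libraries. All 7 promoters found were searched, beyond those of the most changed members. The members and the 21 lists were chosen with earlier results of these data known. Beyond the members, each list's 3 called genes with the largest change and mean TPM of at least 2 were named, with up to 3 called against the list's direction, and some of these are not reported here. Other genes named were chosen after their values were seen.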

Additional observations from a re-analysis of the deposited data

Results flagged for a closer look

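The Zfp36l1 to Zfp36l2 ratio of WT 5 was 1.02, apart from the 4 other WT libraries, which lay between 0.906 and 0.930. Its gap to the next library was 0.780 of the group's range, against a critical value of 0.710. Of 26 groups of values examined this was the only such library, and chance gives about 1 in 20. WT 5 was also the WT library with the highest sum of B cell markers (1159 TPM), whose part was not tested.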

How the results depend on the processing

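Zfp36, Zfp36l1, Zc3h12a, Zc3h12d and Btg1 kept their direction and passed in all 22 alternatives run. Zfp36l2 did not pass after quantile scaling (-0.13), with the B cell marker covariate (-0.24), without WT 4 and 5 together (-0.28) or with the replicate block (-0.30). Rc3h2 did not pass after median ratio (0.15) or quantile scaling (0.15), with the covariate (0.19) or without WT 4 and 5 (0.23). Rc3h1 passed, lower, after median ratio (-0.19) and quantile scaling (-0.17). The cause of these was not tested. Leaving out 1 library at a time gave -0.42 to -0.25 for Zfp36l2, which did not pass without Rig1 KO 4, and 6 to 7 members called. Over all genes, 3993 to 4788 were then called, against 4817 with all libraries and 2874 (2264 higher, 610 lower) with the covariate. After median ratio scaling 2381 genes were higher and 2384 lower, against 3526 and 1291. Same-numbered libraries correlated between -0.115 and 0.0853, and differently numbered ones between -0.129 and 0.164. These values show no sign of pairing by number but cannot settle it. The replicate block drops WT 5, which has no partner. With it, a sign flip over 4 pairs cannot go below p = 0.125, and the ratio differences were -0.88 (Zfp36 to Zfp36l1), -1.39 (Zfp36 to Zfp36l2), -0.51 (Zfp36l1 to Zfp36l2), -2.77 (Zc3h12a to Zc3h12d) and -0.36 (Rc3h1 to Rc3h2), each at p = 0.125 in this exact test. Other gene lengths cancel in the ratio differences and were not run there. Without WT 4 and 5 the Zfp36l1 to Zfp36l2 difference was -0.51 (adjusted p = 0.0571, exact permutation test). Against 3 nonsense-mediated decay genes called, 1 (covariate) to 7 (median ratio, quantile, voom) were called, and against 1 CCCH gene, 0 (covariate, block) to 5 (median ratio).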

Other observations

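Genes with the AU-rich nonamer in their 3′ UTR, 815 of the tested genes, were called about as often as the others. Of them, 35.0% were higher and 12.5% lower in Rig1 KO, with a median log2 fold change of 0.13. Of the 9419 genes without it, 33.5% were higher and 12.3% lower, with a median of 0.12. Their UTRs were longer (median 2275 bases, against 1041), and no test was made of the difference. Of 20 listed TTP family targets, 12 held at least 1 nonamer, up to 5 in Tnf, and 8 held none, among them Ifng, Il6 and Myc.

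Some paralogues fell below the filter on low values. Zc3h12c was at 0.304 ± 0.0465 TPM in Rig1 KO (SD, n = 4) and 0.733 ± 0.384 TPM in WT (SD, n = 5), and Zfp36l3 at 1.03 ± 0.714 TPM in Rig1 KO and 0.0584 ± 0.131 TPM in WT. With no filter on low values Zfp36l3 was called higher in Rig1 KO (log2 fold change 0.86, limma adjusted p = 0.0359), and Zc3h12c (-0.38, adjusted p = 0.0767), Zc3h12b (-0.06, adjusted p = 0.466) and Btg4 (-0.02, adjusted p = 0.505) did not pass.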
